A study of Mus musculus with 6 samples.

Results

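The Polycomb complex genes are 10 genes that encode subunits of the 2 Polycomb repressive complexes, PRC2 and PRC1. They were taken by symbol from the gene table of an RNA-Seq comparison of Tregs with and without Zfp335, and 10 of 10 were found among its 13709 rows and passed the low-count filter that left 13594 genes for testing. Ezh1, Ezh2, Eed, Suz12 and Jarid2 belong to PRC2, and Bmi1, Ring1, Rnf2, Cbx7 and Phc3 belong to PRC1. Tregs are a CD4+ T cell subset, defined by the factor Foxp3, that holds immune responses in check. The cells were CD4+YFP+CD25+ Tregs of 2-week-old C57BL/6 mice, with 3 samples from Foxp3Cre mice (WT) and 3 from Foxp3Cre Zfp335fl/fl mice (KO). Both genotypes carry Cre and YFP, which are made from the Foxp3 locus, and KO alone carries the floxed Zfp335 gene that Cre deletes in cells expressing Foxp3. Some labels name lymph nodes and others spleen as the source. The number of mice behind a sample was not stated, so the p-values measure the spread between these samples, which may be technical.

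PRC2 places methyl groups on lysine 27 of histone H3 (H3K27), with Ezh2 or its paralog Ezh1 as the enzyme and Eed and Suz12 as core subunits. PRC1 reads that mark through Cbx proteins and places ubiquitin on histone H2A through the RING ligases Rnf2 and Ring1. Both complexes keep genes silent, and Ezh2 is known as the enzyme of dividing cells and Ezh1 as that of resting cells. In CD4+ T cells, Ezh2 is known to restrain the genes of Th1 and Th2 cytokines, and Tregs need it to hold their identity once activated.

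The promoters of 4 members are shown first, since Ezh2, Suz12 and Cbx7 are the members that passed the cutoffs of the comparison and Eed is the core partner of the first 2. Each line gives the bases from 250 before to 12 after a RefSeq start of the gene, on the strand of the gene, in mm10. For Ezh2 and Cbx7 this start lies inside the annotated gene span, which on the minus strand begins at 47595270 and 79971143. Ezh2 is given at chr6:47595019-47595280 (minus strand), Suz12 at chr11:79992856-79993117 (plus strand), Eed at chr7:89980965-89981226 (minus strand) and Cbx7 at chr15:79932635-79932896 (minus strand). Capitals mark matches on either strand to 3 motifs, the E2F type TTTNNCGC, the ETS type CCGGAAGT and the NF-Y box CCAAT.
Ezh2: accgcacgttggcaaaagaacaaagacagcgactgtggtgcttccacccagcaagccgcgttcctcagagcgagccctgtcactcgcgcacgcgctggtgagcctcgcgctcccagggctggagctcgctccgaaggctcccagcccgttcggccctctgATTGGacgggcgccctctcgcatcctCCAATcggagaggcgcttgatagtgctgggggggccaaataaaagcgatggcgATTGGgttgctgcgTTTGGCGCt
Suz12: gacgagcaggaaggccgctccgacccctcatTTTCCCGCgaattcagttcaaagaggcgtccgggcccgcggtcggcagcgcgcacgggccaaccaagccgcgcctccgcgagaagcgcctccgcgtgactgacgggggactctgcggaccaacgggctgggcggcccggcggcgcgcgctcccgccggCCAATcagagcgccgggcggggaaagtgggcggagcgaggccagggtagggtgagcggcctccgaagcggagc
Eed: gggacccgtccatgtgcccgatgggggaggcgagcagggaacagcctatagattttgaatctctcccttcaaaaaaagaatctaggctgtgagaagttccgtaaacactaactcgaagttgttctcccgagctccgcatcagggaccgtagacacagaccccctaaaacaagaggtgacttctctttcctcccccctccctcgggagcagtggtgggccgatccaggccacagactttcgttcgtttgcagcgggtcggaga
Cbx7: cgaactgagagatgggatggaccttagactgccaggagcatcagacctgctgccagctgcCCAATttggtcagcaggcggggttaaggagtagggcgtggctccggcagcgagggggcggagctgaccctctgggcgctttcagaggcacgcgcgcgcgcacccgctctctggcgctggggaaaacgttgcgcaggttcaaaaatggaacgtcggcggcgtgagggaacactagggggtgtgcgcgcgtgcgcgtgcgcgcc

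E2F factors drive genes of the cell cycle, and NF-Y binds CCAAT boxes that are common in promoters of such genes. Over the whole window, which runs to 50 bases after the start, the E2F type was matched in 2 of 11 promoters of the 10 genes, those of Ezh2 and Suz12. It was matched in 8.0% of the 13578 promoters of genes in the table. The match in Ezh2 began 4 bases into the transcribed region and that in Suz12 began 219 bases before the start. The NF-Y box was matched in 6 of 11 member promoters, against 37.9% of all. Of these matches, 3 were in Ezh2 at 90, 64 and 11 bases before the start used, inside the annotated gene span. The ETS type was matched in 0 of 11, against 7.6% of all. The median GC content was 64.3% for the member promoters and 60.0% for all. These matches describe letters in a window and are not binding sites.

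Total counts lay between 32032631 and 40728419 per sample. Levels are given as CPM, counts scaled to a common library size. Zfp335 was 94.3 to 103 CPM in WT and 37.0 to 40.2 CPM in KO, with no overlap between genotypes (log2 fold change -1.37, edgeR adjusted p 2.14e-05). Of 6 markers of T cells and Tregs, all were expressed, and Cd4 and Foxp3 had means of 788 and 465 CPM in KO. The summed level of these markers was 3927 to 5104 CPM in WT and 3309 to 3405 CPM in KO, and Ikzf2 and Foxp3 were called lower. Without WT replicate 3, described next, Foxp3 went from -0.88 to -0.57 on the log2 scale and was under the fold cutoff. WT replicate 3 stood apart from WT replicates 1 and 2 on the second principal component, at -58.9 against 22.1 and 34.4, so values without it are given beside the results it moves. Markers of other cells were low. Of 7 myeloid markers, 6 were called higher in KO, against 11.9% of all genes, with sums of 16.7 to 28.0 CPM in WT and 51.0 to 60.4 CPM in KO. Without WT replicate 3, 5 of the 7 were called higher, and Lyz2 (log2 fold change 0.55) was under the fold cutoff. S100a8 and S100a9 had 0 counts in WT. In single Tregs of younger mice, the study reported high S100a8 and S100a9 in a Treg cluster that made up more of the KO cells. Of 3 NK cell markers 2, of 4 dendritic cell markers 1 and of 2 CD8 T cell markers 1 were called higher, with sums of at most 16.2, 11.5 and 13.2 CPM in any sample. Of 4 B cell markers 1 was called lower (sums of 16.0 to 18.1 CPM in WT and 10.76 to 10.95 CPM in KO), and of 3 erythroid markers 0 were called (15.5 to 63.2 and 27.29 to 29.97 CPM). Without WT replicate 3, which had the lowest erythroid sum, 2 of these 3 were called lower, Hba-a1 (log2 fold change -1.31) and Hbb-bs (-0.96). The part of such cells in the results was not tested. In sorted cells measured in bulk, fewer cells of a kind cannot be told apart from less RNA per cell.

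To compare the Polycomb complexes between genotypes, genes were called when their fold change was above 1.5 with p under 0.05 and edgeR adjusted p under 0.1. Of the 10 genes, Ezh2 and Suz12 rose in KO, Cbx7 fell, and 7 were not called. Of all genes tested, 24.4% were called, 11.9% higher and 12.5% lower in KO, so 3 of 10 is near that background. Without a cutoff on fold change, 8 of 10 had an edgeR adjusted p under 0.1, 3 higher and 5 lower, against 47.0% of all genes. The WT and KO values did not overlap for 8 of 10, against 53.8% of all genes. The median log2 fold change of the 10 genes was -0.26, and that of all genes was -0.04. The core PRC2 genes Ezh2, Suz12 and Eed had higher means in KO, and the other 7 genes had lower means.

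**Figure D1:**
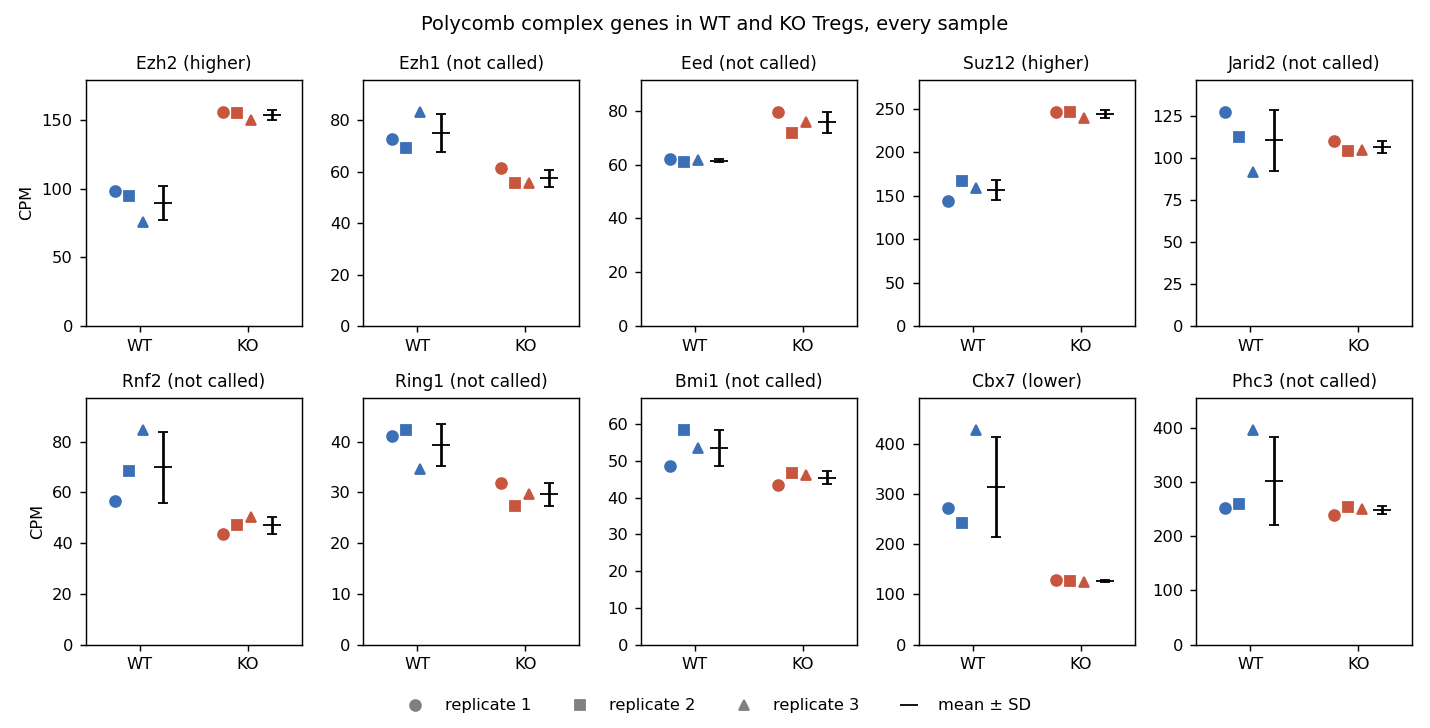
CPM of each Polycomb complex gene in every sample, with 3 WT samples (blue) and 3 KO samples (red), a marker shape per replicate number, and the mean ± SD as a black bar; each vertical axis starts at 0, and the title gives the call. The KO samples of Ezh2 and Suz12 lie above all WT samples, those of Cbx7 lie below them, and WT replicate 3 is the highest sample of Cbx7, Phc3, Rnf2 and Ezh1.

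Ezh2, the catalytic subunit of PRC2, had 98.7, 94.7 and 75.8 CPM in the WT samples, in order of replicate number, against 156, 155 and 150.0 CPM in the KO samples. Every KO sample was above every WT sample, and WT replicate 3 was the lowest of all. The mean rose from 89.7 ± 12.2 to 154 ± 3.30 CPM (SD, n = 3), or by 0.78 on the log2 scale (SE 0.10, edgeR adjusted p 0.000958). Without WT replicate 3 it was 0.66 (adjusted p 3.13e-07), still above the fold cutoff. Ezh2 lies on chromosome 6 at 47530274 to 47595270, and none of the genes overlapping it is in the table.

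Suz12, which the complex needs for its activity, had 144, 167 and 159 CPM in WT against 246, 246 and 239 CPM in KO. The groups did not overlap, and WT replicate 3 was between the other WT samples. Suz12 rose from 157 ± 11.5 to 244 ± 4.18 CPM, or by 0.64 on the log2 scale (SE 0.07, edgeR adjusted p 0.000555). Its size is close to the cutoff, and without WT replicate 1 it was 0.58, just under a fold of 1.5. When a fold above 1.5 was itself tested with glmTreat, neither Ezh2 nor Suz12 passed (adjusted p 0.107 and 0.456).

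Eed, which binds trimethylated H3K27 and stimulates the enzyme, was 62.0, 60.8 and 61.7 CPM in WT and 79.6, 71.7 and 75.9 CPM in KO. The 3 KO samples were above the WT samples, which were nearly equal. Its log2 fold change of 0.30 (SE 0.07, edgeR adjusted p 0.0109, 95% interval 0.14 to 0.46) was under the fold cutoff, so Eed was not called.

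Ezh1, the paralog of Ezh2 with weaker methyltransferase activity, had the opposite direction. It was 72.9, 69.4 and 83.4 CPM in WT and 61.3, 55.5 and 55.5 CPM in KO, with no overlap. KO had 76.4% of the WT level (log2 fold change -0.39, SE 0.09, edgeR adjusted p 0.0120), which is less than the fold cutoff. Jarid2, which helps to recruit PRC2 to chromatin, was 128, 112 and 91.5 CPM in WT and 110, 104 and 105 CPM in KO. All KO values lay within the WT range, and the log2 fold change was -0.05 (95% interval -0.32 to 0.22, edgeR adjusted p 0.752). It changed sign to 0.06 without WT replicate 1, and was -0.18 without WT replicate 3 (edgeR adjusted p 0.0415, under the fold cutoff).

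**Figure D2:**
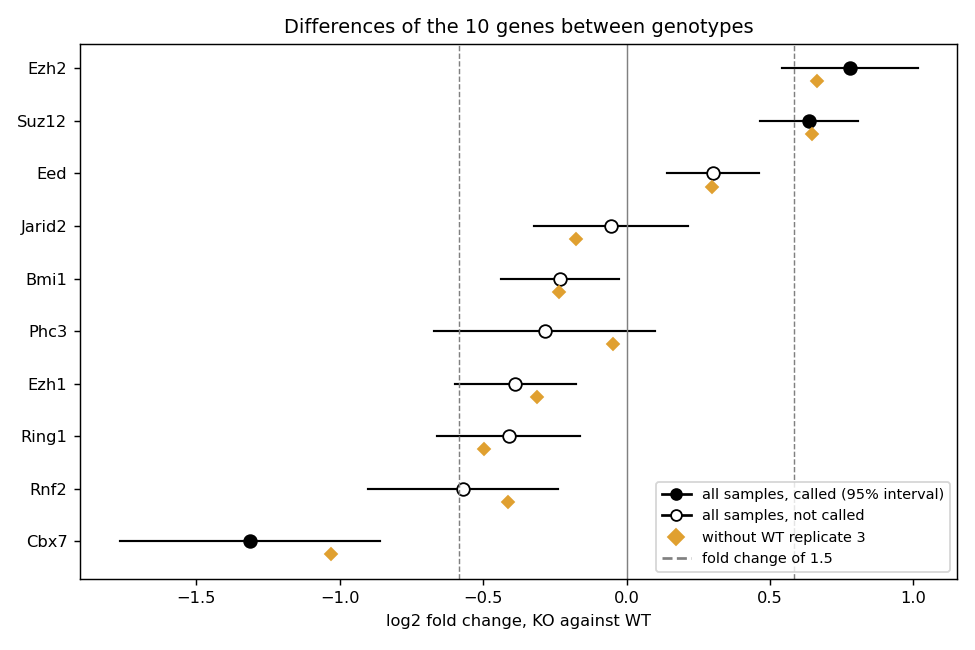
Log2 fold changes of the 10 genes, KO against WT, with 95% intervals from all 6 samples (filled where called), the values without WT replicate 3 as diamonds, and a fold change of 1.5 as dashed lines. Ezh2 and Suz12 lie to the right of the cutoff and Cbx7 to the left, with and without WT replicate 3, while Phc3 moved from -0.29 to -0.05.

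Among PRC1 genes, Cbx7 had the largest difference of the 10. It encodes a chromodomain protein that binds methylated H3K27 and recruits PRC1. Its level was 273, 242 and 427 CPM in WT against 128, 127 and 124 CPM in KO. The lowest WT sample was well above the highest KO sample, and WT replicate 3 was far above the other WT samples. Cbx7 fell from 314 ± 99.1 to 126 ± 1.66 CPM, with a log2 difference of -1.31 (SE 0.20, edgeR adjusted p 0.00161), and KO had 40.2% of the WT level. Without WT replicate 3 the log2 fold change was -1.03 (adjusted p 3.30e-09), and Cbx7 also passed when a fold above 1.5 was tested. The span of Cbx7 overlaps Apobec3 on the opposite strand, although their annotated exons share 0 bases. Apobec3 was 195, 183 and 322 CPM in WT and 211 to 218 CPM in KO, and was not called (log2 fold change -0.12, edgeR adjusted p 0.676). Like Cbx7, it was highest in WT replicate 3, and without that replicate its sign turned (0.18, adjusted p 0.0144, under the fold cutoff).

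The 2 RING ligases of PRC1 were both lower in KO by less than the fold cutoff. Rnf2, known as Ring1B and the main H2A ligase, was 56.7, 68.3 and 84.4 CPM in WT and 43.4, 47.2 and 50.3 CPM in KO. The groups did not overlap, although WT replicate 1 was near the highest KO sample. The log2 difference of -0.57 (SE 0.14, edgeR adjusted p 0.0156) is a fold of 1.49, so Rnf2 lay just under the cutoff. It was called when WT replicate 1 (-0.70), when WT replicate 2 (-0.59) and when KO replicate 3 (-0.62) was left out, and with library totals alone (-0.605). When WT replicate 3 was left out the difference was smaller, at -0.41, and Rnf2 was not called. The span of Rnf2 overlaps Trmt1l on the opposite strand with 0 shared exon bases, and Trmt1l had a log2 fold change of -0.52 (-0.39 without WT replicate 3). Ring1, known as Ring1A, was 41.1, 42.2 and 34.6 CPM in WT and 31.9, 27.2 and 29.6 CPM in KO, with no overlap (log2 fold change -0.41, SE 0.11, edgeR adjusted p 0.0185). When offsets for GC content and length were used, the log2 fold change of Ring1 was smaller, at -0.24 (edgeR adjusted p 0.107). Without WT replicate 3 it was larger, at -0.50 (edgeR adjusted p 0.00022), and Ring1 was not called.

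Bmi1, a PCGF subunit that partners the ligases in the Cbx-containing form of PRC1, was 48.5, 58.3 and 53.4 CPM in WT and 43.3, 46.8 and 46.2 CPM in KO. The groups were separate by a small gap, with a log2 fold change of -0.23 (SE 0.09, edgeR adjusted p 0.0743, 95% interval -0.44 to -0.03). Phc3, a polyhomeotic subunit that lets PRC1 cluster, was 252, 259 and 396 CPM in WT and 240, 254 and 250 CPM in KO. The groups overlapped, and the higher WT mean came from WT replicate 3. Phc3 had a log2 fold change of -0.29 (SE 0.17, edgeR adjusted p 0.214) with all samples and -0.05 (adjusted p 0.482) without that replicate.

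To compare levels between genes, CPM was divided by the length of the longest protein-coding transcript in kilobases (RPKM). The 10 genes lay between the 61.6th and the 92.3rd percentile of the 13279 genes with a length, by their mean RPKM over all samples. In WT, Cbx7 was the highest at 92.6 ± 29.2 RPKM and its samples were separate from those of the next gene, Suz12, at 35.8 ± 2.64 RPKM. From Suz12 down through Ezh2, Eed, Phc3, Rnf2, Ring1, Jarid2 and Ezh1, each neighbor overlapped the next in its range. Bmi1 was the lowest, at 14.9 ± 1.37 RPKM. In KO, Suz12 and Ezh2 led at 55.8 ± 0.956 and 55.2 ± 1.18 RPKM with overlapping ranges, and both were separate from Cbx7 at 37.3 ± 0.489 RPKM, which overlapped Eed at 36.6 ± 1.92 RPKM. Phc3 and Jarid2 followed, separate from each other, then Rnf2, Ring1 and Ezh1 with overlapping neighbors, and Bmi1 at 12.6 ± 0.518 RPKM. With the union of annotated exons as length, Cbx7 led in WT and Suz12 in KO as before, and Ezh1 rather than Bmi1 came last in both.

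The balance between paralogs was then measured within each sample, where library scaling has no part. With 3 samples against 3, the smallest p that the exact two-sided permutation test allows is 0.10, so no balance could pass 0.05. Ezh2 over Ezh1 had a log2 ratio of RPKM of 1.03, 1.04 and 0.456 in WT replicates 1 to 3 and 1.94, 2.08 and 2.03 in KO. All KO samples were above all WT samples, and WT replicate 3 was again the lowest. On the linear scale Ezh2 was 1.83 ± 0.393 times Ezh1 in WT and 4.05 ± 0.192 times Ezh1 in KO (exact p 0.10, adjusted p 0.167 over 5 balances). Without WT replicate 3 the log2 difference fell from 1.17 to 0.979, the lowest value when any sample was left out.

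**Figure D3:**
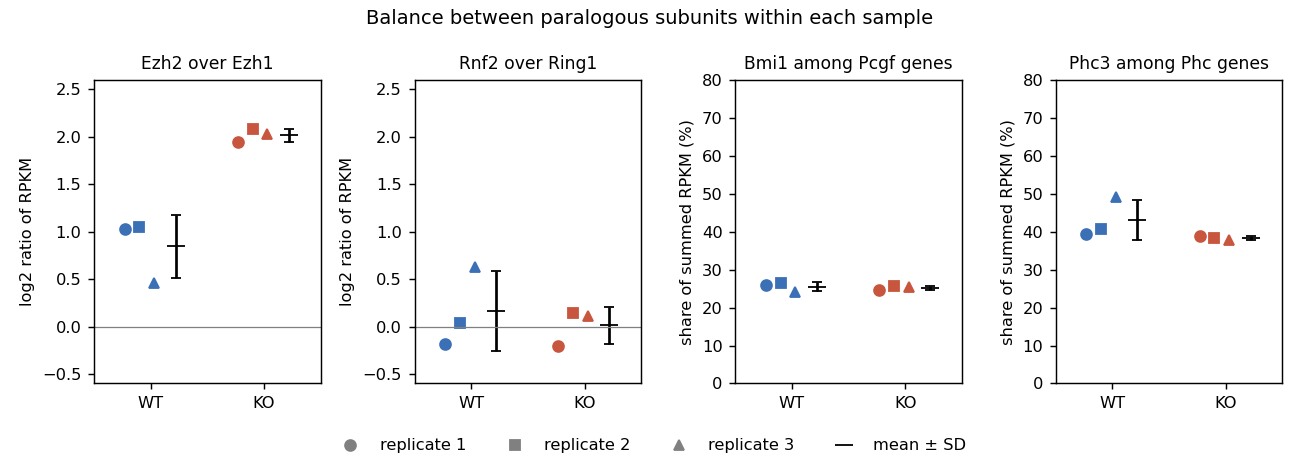
Balance between paralogs in each of 6 samples, as log2 ratios of RPKM (left panels) and as shares of the summed RPKM of a family (right panels, from 0), with the mean ± SD per genotype. Ezh2 over Ezh1 separates the genotypes, with means of 0.843 in WT and 2.02 in KO, and the share of Phc3 does so by a narrow gap, while Rnf2 over Ring1 and the share of Bmi1 overlap.

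The share of Phc3 among Phc1, Phc2 and Phc3 was 39.3%, 40.7% and 49.2% in WT and 38.8%, 38.2% and 37.9% in KO. These groups were separate by a narrow gap (exact p 0.10, adjusted p 0.167), and the difference of -4.76 percentage points was -1.69 without WT replicate 3. Rnf2 over Ring1 did not separate the genotypes (log2 ratio 0.161 ± 0.423 in WT and 0.0143 ± 0.193 in KO, exact p 0.80). The share of Bmi1 among 6 PCGF genes was 25.5 ± 1.18% in WT and 25.1 ± 0.505% in KO (exact p 0.60). This depended on the division by length, since with undivided counts the difference was -3.40 percentage points rather than -0.379 and reached the smallest p (exact p 0.10). Within that family, Pcgf6 was 13.7 RPKM in WT and 8.95 RPKM in KO, and Pcgf5 was 8.56 and 10.7 RPKM.

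Genes that work with the complexes were counted from 4 lists with 41 tested genes. Of these, 2 were called higher and 4 lower in KO and 35 were not called, where 24.4% of all genes were called. Of 8 PRC2 partners, Phf19 and Epop rose and Phf1 fell. Phf1 and Phf19 are paralogs that bind methylated H3K36 and help to place PRC2. Phf19 was 19.99, 17.5 and 10.3 CPM in WT and 35.1, 34.3 and 33.6 CPM in KO. Its KO samples were above all WT samples, with WT replicate 3 the lowest (log2 fold change 1.11, SE 0.22, edgeR adjusted p 0.00562, and 0.87 without WT replicate 3). Phf1 was 129, 120 and 149 CPM in WT and 68.0, 74.4 and 77.1 CPM in KO, with no overlap (log2 fold change -0.86, SE 0.09, edgeR adjusted p 0.000465). Epop, which links PRC2 to elongin, rose from 10.6 ± 1.11 to 16.6 ± 1.86 CPM (log2 fold change 0.65, edgeR adjusted p 0.00776). The histone-binding subunits Rbbp4 and Rbbp7 were higher in all KO samples by less than the cutoff, with log2 fold changes of 0.26 and 0.42 (edgeR adjusted p 0.0161 and 0.00969).

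Of 25 PRC1 partners, 0 were called higher and 3 lower, the latter near the share of all genes called lower (12.5%). Of all genes, 11.9% were called higher. The median log2 fold change of these partners was -0.17. Bcor, a subunit of a variant PRC1 with Pcgf1 and Kdm2b, was 197, 195 and 201 CPM in WT and 122, 118 and 121 CPM in KO. Its samples agreed closely within each genotype and did not overlap (log2 fold change -0.72, SE 0.06, edgeR adjusted p 0.000129). Pcgf6 and Cbx8 also fell, by 0.61 and 0.68 on the log2 scale. Cbx6 was lower in every KO sample (log2 fold change -0.49, edgeR adjusted p 0.00129) and was under the fold cutoff. Without WT replicate 3, Epop (0.58), Pcgf6 (-0.50) and Cbx8 (-0.57) were under the fold cutoff, so 1 gene was called higher and 2 lower in the 4 lists.

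Genes of enzymes that oppose the complexes, and of partners listed with them, were not called. Of 6 genes of the H2A deubiquitinases and their partners, 0 were called. Asxl2 (-0.50) and Foxk2 (0.46), which are partners and not enzymes, had the lowest and highest log2 fold changes. The H3K27 demethylases differed in direction. Kdm6a was 70.5 to 80.5 CPM in WT and 100.3 to 106 CPM in KO (log2 fold change 0.43, edgeR adjusted p 0.00333), and Kdm6b was 214 to 258 CPM in WT and 160.0 to 171 CPM in KO (log2 fold change -0.50, edgeR adjusted p 0.00285). The groups did not overlap for either gene, and both differences were smaller than the fold cutoff.

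**Figure D4:**
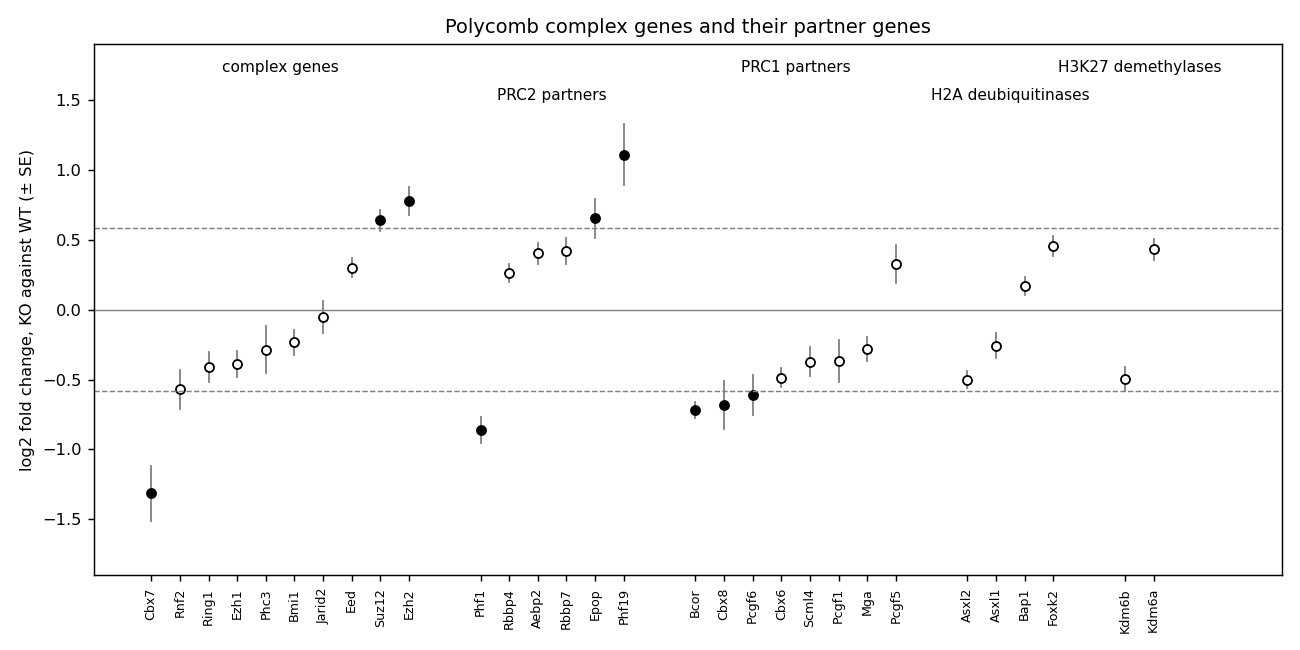
Log2 fold changes (± SE) of the 10 Polycomb complex genes and of the partner genes with an edgeR adjusted p under 0.1 (9 higher and 11 lower in KO), ordered by value within each list, with called genes filled and a fold change of 1.5 as dashed lines. Phf19 (1.11) and Phf1 (-0.86) lie at opposite ends of the PRC2 partners. The filled PRC1 partners, 3 of 25 tested, are lower in KO, near the share of all genes called lower (12.5%).

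A list of 8 genes known as Polycomb targets in lymphocytes was examined beside the complexes. All 8 were called higher in KO, against 11.9% of all genes, with a median log2 fold change of 4.11, and all 8 also without WT replicate 3 (3.89). The list was chosen with earlier results of these data known, so its direction is not independent evidence for any of the 8. It includes Tbx21, Gata3, Ifng, Il4 and Il13, which the study had shown as higher in these samples. Their log2 fold changes ran from 0.78 for Gata3 to 9.07 for Il13. In heterozygous females without such inflammation as the KO mice develop, the study found most Treg and Th signature genes nearly equal between genotypes. It ascribed the altered signatures in KO mice to inflammation, as a secondary effect. The part of inflammation was not tested here. The sizes for Il13 and Il4 rest on few WT counts. The WT samples of Il13 had 0.0815, 0.426 and 0.210 CPM, the first at the level of 3 counts, and those of Il4 had 0.407, 0.335 and 0.270 CPM. The other 3 genes of the list were Cdkn2a, Cdkn2b and Eomes. Cdkn2a, the classic Polycomb target that encodes the cell cycle inhibitor p16 and Arf, was 0.706, 0.518 and 0.0901 CPM in WT and 9.14, 12.1 and 10.4 CPM in KO. Every KO sample was far above the WT samples, of which WT replicate 3 was at the level of 3 counts (log2 fold change 4.56, SE 0.51, edgeR adjusted p 0.000483). Its neighbor Cdkn2b, which encodes p15, rose from 0.265 ± 0.172 to 1.57 ± 0.393 CPM (log2 fold change 2.54, edgeR adjusted p 0.0104). For Cdkn2b, WT replicate 2 was at the level of 3 counts (0.0913 CPM). Cdkn2a, Cdkn2b, Il4 and Il13 were not among the genes tested when at least 10 counts were required in every sample. Eomes, a T-box factor of effector T cells that is also 1 of the 2 NK cell markers called higher and most of their summed level in KO, rose from 2.31 ± 0.807 to 11.3 ± 0.238 CPM (log2 fold change 2.29, edgeR adjusted p 0.000437). H3K27 methylation was not measured here.

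Genes of cell division were examined beside the complexes, since Ezh2 is known to be higher in dividing cells. All 18 genes of a proliferation list were called higher in KO, against 11.9% of all genes, with a median log2 fold change of 1.75. Without WT replicate 3, 17 were called higher (median 1.43), where 1862 of all 13663 genes tested were. This list too was chosen with earlier results of these data known, so its direction is not independent evidence. The summed level of the 18 genes was 2280, 2274 and 1305 CPM in WT against 5889, 5659 and 5632 CPM in KO. As for Ezh2, the KO samples were above all WT samples and WT replicate 3 was the lowest, whereas Suz12 and Eed in that replicate lay between the other WT samples. Mki67 rose from 362 ± 141 to 1541 ± 31.5 CPM and Top2a from 178 ± 84.7 to 621 ± 27.2 CPM (edgeR adjusted p 0.00101 and 0.00517). Cbx7 was highest in WT replicate 3 and lower in every KO sample than in any WT sample. Between WT replicates 1 and 2, and among the KO samples, Cbx7 and Ezh2 both had the order of the summed level. These orders rest on small differences, with summed levels of 2280 and 2274 CPM in WT replicates 1 and 2. The part of proliferation in the differences of Ezh2, Suz12 and Cbx7 was not tested. By Pearson's r of log2 CPM over the 6 samples, the genes most like Ezh2 were Ppil1, Ckap5 and Bard1, at 0.9998, 0.9998 and 0.9997. This likeness is a description, since the samples fall into the 2 genotypes and 241 genes had an r above 0.99.

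**Figure D5:**
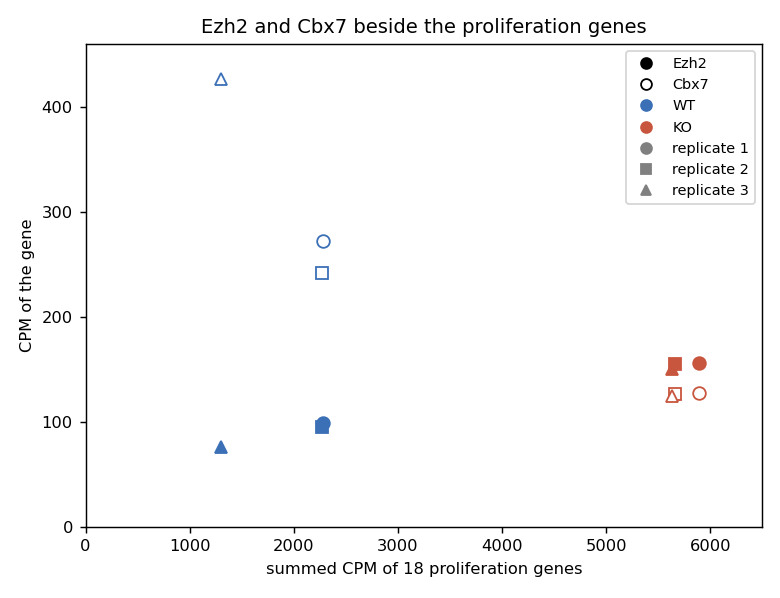
CPM of Ezh2 (filled) and Cbx7 (open) in each sample against the summed CPM of 18 proliferation genes, with WT in blue, KO in red and a marker shape per replicate number; both axes start at 0. WT replicate 3 has the lowest summed level (1305 CPM), the lowest Ezh2 (75.8 CPM) and the highest Cbx7 (427 CPM), and the KO samples cluster at the other end.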

How the data were processed

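RNA-Seq was done on sorted Tregs from 3 WT and 3 KO samples. According to the study's methods, the authors filtered reads with SOAPnuke 1.5.6, aligned them with HISAT2 to mm10 (1 alignment reported for a read), then ran StringTie for gene levels. The authors deposited whole-number counts per gene without normalization. How these were obtained, the annotation and the use of strand were not stated, so reads of an overlapping gene may be included. The smallest row sum was 60, so genes with low counts are missing from the table.

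Counts were tested with R 4.3.3 and edgeR 4.0.16 (filterByExpr at a minimum count of 10, TMM scaling, quasi-likelihood F-test, Benjamini-Hochberg adjustment over all 13594 genes), with the fold and p cutoffs of the study. The SE is the size of the log2 fold change divided by the square root of F. DESeq2 1.42.0 was an alternative. The procedure was checked on simulated counts. CPM uses TMM-scaled totals, and a floor of 3 counts was 0.0747 to 0.0913 CPM, for counting error only. Lengths came from GENCODE M21 transcripts, and positions and promoters from RefSeq (GRCm38.p6, the assembly of mm10), which held promoters for 10738 of 13680 symbols and for all 10 members.

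The members, lists and tests were chosen with earlier results of these data known. Genes named are the members, Zfp335, called partner genes, paralogs in the balances, Mki67, Top2a and the 3 genes most like Ezh2. Trmt1l and Apobec3 are named as overlapping genes, and other listed genes were named after their values were seen. Listed genes with no row of that symbol were not analysed here, and 1 of the 5 paralog balances tested and the values of 1 partner gene are not reported here. Same-numbered samples did not deviate together (correlations of -0.012 to 0.040 between their deviations from the genotype means), so the replicate number was not used as a block in the main test.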

Additional observations from a re-analysis of the deposited data

How the results depend on the processing

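Ezh2 was called higher in 14 of 15 alternatives (log2 fold change 0.66 to 0.85), Suz12 in 13 of 15 (0.58 to 0.68), and Cbx7 lower in 15 of 15 (-1.47 to -1.03). Dropping the fold cutoff and asking for an adjusted p under 0.05 called 5244 genes (2610 higher, 2634 lower) and 7 members, 4 of them lower. Against a fold of 1.5, glmTreat called 1686 genes (941 higher, 745 lower) and 1 member, Cbx7, with 0 members higher. With library totals alone 2 members were called lower, Rnf2 being the second. Leaving out each sample in turn gave 2867 to 3667 called genes and 3 to 4 called members, 1 to 2 in each direction. In these fits Jarid2 ran from -0.18 to 0.063, Rnf2 over Ring1 from -0.322 to 0.0888, with its sign changed without WT replicate 3, and the share of Bmi1 from -1.06 to 0.0320 percentage points, with its sign changed without WT replicate 2. The causes were not tested. The replicate block called 3190 genes, 3100 of them also called without it, and the same members, Ezh2, Suz12 and Cbx7. Offsets for GC content and length called 3248 genes and also those 3 members. Library totals moved the median over all genes from -0.04 to -0.07 (log2). Union exon lengths and the lists without WT replicate 3 were added after the data were seen. With 3 samples a genotype the balances could not reach a p of 0.05, and counts per gene show no isoforms.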
